A study of Homo sapiens with 30 samples.

Results

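The genes described here are 33 members of the cellular response to low oxygen that lie outside glycolysis, among 60656 genes listed for the series. They were taken by symbol from a list of HIF subunits, oxygen sensors and known HIF target genes. The rule itself uses no measured value, but the list was drawn up with earlier results of these data known. All 33 were found and read in 30 libraries, 3 in each of 10 groups. All groups are cultures of diffuse large B cell lymphoma (DLBCL) lines with a genotype labelled WT. In 24 libraries, OCI-LY3, HT, OCI-LY19 and SUDHL5 were either untreated (0 h) or kept for 24 h in 0.2 µM doxorubicin, an anthracycline that traps topoisomerase II on DNA. OCI-LY19S is the parental, drug-sensitive OCI-LY19 culture held without drug. OCI-LY19R is its resistant derivative, held in 20 nM doxorubicin until 1 week before harvest, and it is 1 derivative only. Untreated libraries were all taken at 0 h, so the drug and the hours in culture cannot be told apart. The medium of OCI-LY3 and HT held more serum than that of OCI-LY19 and SUDHL5. The labels give no oxygen tension for any culture.

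Cells sense oxygen through hydroxylases. EGLN enzymes use oxygen to hydroxylate HIF alpha subunits, and the VHL protein then marks the hydroxylated subunit for destruction. When oxygen falls, HIF1A or EPAS1 (HIF2 alpha) is spared, pairs with ARNT and binds short RCGTG cores (R is A or G) near its target genes. Because HIF1A is controlled mostly as a protein, its mRNA does not report its activity. In B cell tumours, as in other cells, the targets cover mitophagy, growth control, blood vessel growth, collagen modification and lipid storage beside the glycolytic enzymes.

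The 3 libraries of a group are biological replicates per the labels, which do not say that they came from separate cultures. The p-values therefore measure only the spread between libraries within groups. For each gene that spread was estimated over the 8 groups of the 4 lines together. A gene thus has the same standard error in each drug comparison. SUDHL5 replicates lay closest together, with a mean chi-square per gene between replicates of 1.977 to 5.645 against 7.159 to 101.1 in the other groups. Changes in SUDHL5 were still judged with the spread pooled over the lines. Reads recovered from the values ranged from 16067399 to 38337838 a library over the untreated and treated libraries of the 4 lines. They ranged from 18354085 to 121769086 for the 6 libraries of the resistance pair. OCI-LY19S replicate 1 stood apart from its group for several members of the response, DDIT4 above all. All 6 B cell markers reached 1 FPKM (fragments scaled to gene length and library size) in every group, with a summed level of 263 to 1507. Summed T and NK markers reached at most 18.9 FPKM, myeloid markers 32.9, stromal, endothelial and epithelial markers 4.96, and erythroid markers 0.401. In SUDHL5 the T and NK sum was 4.32 to 4.94 untreated and 16.5 to 18.9 after the drug. The myeloid sum there was 0.266 to 0.455 and 5.25 to 6.23. In OCI-LY19 the myeloid sum was 5.19 to 9.24 untreated and 19.6 to 32.9 after the drug. The T and NK sum there was 6.74 to 7.41 and 4.52 to 6.34. Myeloid sums reached at most 0.751 in OCI-LY3 and 0.340 in HT. The part of these markers in the results was not tested.

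Promoters of members that rose in HT and fell in SUDHL5 are shown first, because these genes carry the main contrast described here. The 250 bases before the annotated start in RefSeq (GRCh38.p14) were searched for 26 of the 33 members, 34 promoters in all. BNIP3L and NDRG1 were set aside before the search, whereas the comparison sets were not cut in this way. The shares of members given here therefore hold for the searched members only. The core ACGTG, searched on both strands, stood in 17 of these 34 promoters (50.0%), against 18.5% of all 35116 promoters in the RefSeq table and 22.4% of the 14237 promoters of genes tested in the 4 lines. With GCGTG counted too, 28 of 34 (82.4%) held a core, against 43.2% and 54.9%. The palindrome CACGTG, which holds ACGTG on both strands and is also the E-box of MYC and related factors, stood in 7 (20.6%), against 6.3% and 8.4%. By gene, 16 of 26 members had ACGTG and 22 had either core in at least 1 promoter. No share by gene was computed for the comparison sets. The list holds known HIF targets, so the choice itself favours a raised share of these cores, and the shares are no support. Windows of nearby starts can overlap, so the same bases can count in more than 1 promoter, as for INSIG2 and KDM3A. All are matches of letters and show no binding. The stretches printed are those of searched genes that had 1 start in the table. These genes also had a rise of at least 1 (log2) in HT and a fall of at least 1 in SUDHL5. BNIP3L met both rules of change (1.43 in HT and -1.40 in SUDHL5) but was not searched. ACGTG in the stretch was required, and each stretch ends at the RefSeq start or before the first exon in GENCODE 29, whichever comes first. Each reads 5′ to 3′ on the strand of its gene, and capitals mark matches to ACGTG or GCGTG on either strand.
BNIP3 (chr10:131982014-131982173, minus strand): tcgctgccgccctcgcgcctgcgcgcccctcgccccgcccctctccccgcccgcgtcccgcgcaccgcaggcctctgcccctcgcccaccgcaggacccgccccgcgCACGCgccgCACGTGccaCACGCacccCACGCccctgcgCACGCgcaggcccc
PPFIA4 (chr1:203026241-203026490, plus strand): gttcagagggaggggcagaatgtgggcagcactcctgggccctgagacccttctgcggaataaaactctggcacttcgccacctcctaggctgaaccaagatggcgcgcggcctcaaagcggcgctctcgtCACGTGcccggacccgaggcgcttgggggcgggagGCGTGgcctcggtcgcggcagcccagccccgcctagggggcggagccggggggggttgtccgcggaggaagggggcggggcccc
FAM162A (chr3:122383932-122384175, plus strand): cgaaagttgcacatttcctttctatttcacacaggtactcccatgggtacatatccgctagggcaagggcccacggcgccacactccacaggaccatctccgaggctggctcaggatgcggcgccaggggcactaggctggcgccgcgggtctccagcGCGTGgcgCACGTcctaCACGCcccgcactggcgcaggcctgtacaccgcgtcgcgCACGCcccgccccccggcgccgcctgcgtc
WSB1 (chr17:27293864-27294075, plus strand): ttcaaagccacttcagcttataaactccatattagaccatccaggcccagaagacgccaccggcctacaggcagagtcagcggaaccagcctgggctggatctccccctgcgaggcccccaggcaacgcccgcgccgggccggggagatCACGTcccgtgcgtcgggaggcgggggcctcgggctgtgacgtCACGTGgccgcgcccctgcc
The 160 bases of BNIP3 held 5 separate sites within 44 bases, 1 of them the palindrome. In FAM162A 3 of the 4 sites lay within 22 bases of one another. PPFIA4 held the palindrome and 1 GCGTG, and WSB1 held ACGTG and the palindrome.

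**Figure D1:**
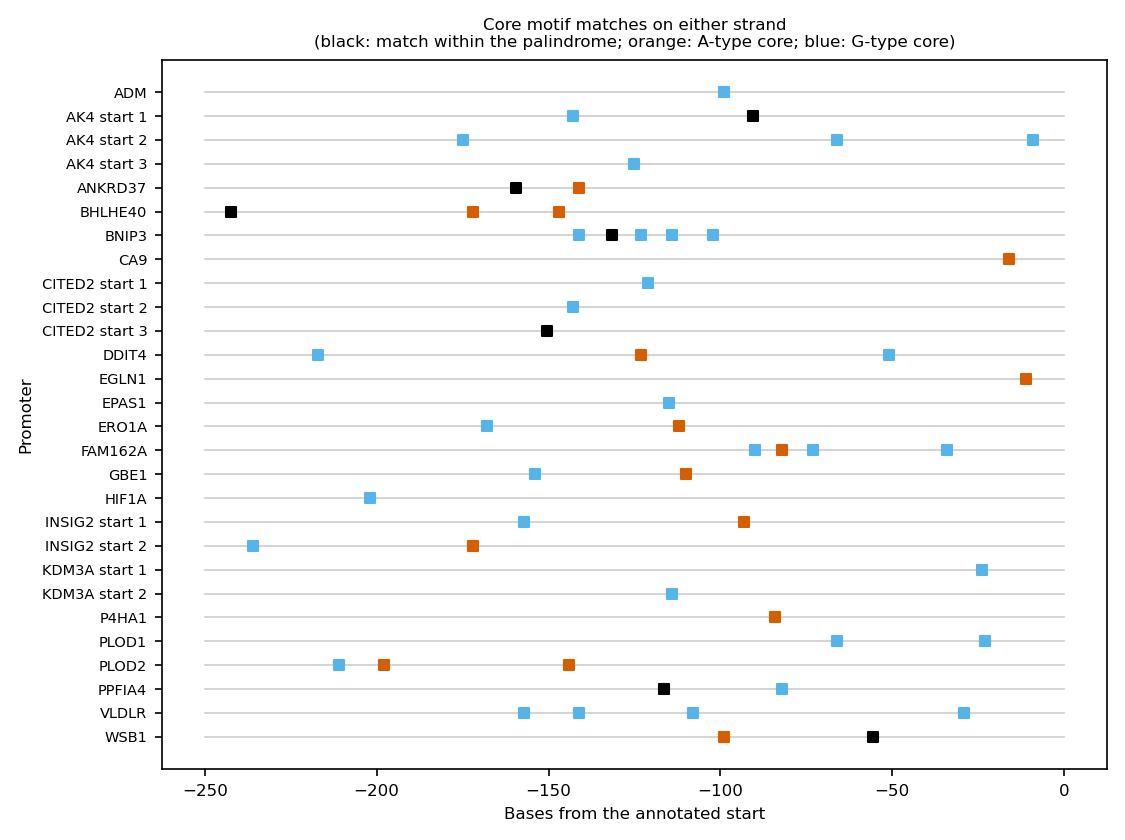
Positions of core matches in the 250 bases before each RefSeq start of the members that have a match, in bases from the start. Orange squares are ACGTG, blue squares GCGTG and black squares matches within CACGTG, on either strand; the sites of BNIP3 crowd between -143 and -100.

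Genes with at least 1 FPKM in at least 3 libraries of a table were tested, which took in 29 members for the drug response and 26 for OCI-LY19R against OCI-LY19S. Of the members not tested in the 4 lines, EGLN3 reached at most 0.222 FPKM in any of the 30 libraries, P4HA2 0.915, PLOD2 0.0419 and EPAS1 0.753. CA9, PPFIA4 and VLDLR were not tested in the resistance pair either. Changes are limma estimates ± standard error on log2(FPKM + 1), a scale that understates the change of low genes, and p-values are adjusted over all genes tested. In these bulk libraries, fewer cells that express a gene and less RNA per cell cannot be told apart.

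Untreated SUDHL5 had the highest level of most members among the 4 lines. In 25 of 33 members all 3 untreated SUDHL5 libraries lay above the other 9 untreated libraries, and among the tested members this held for 24 of 29, against 16.1% of all genes tested. DDIT4 was the member of highest level, at 415, 417 and 403 FPKM, and BNIP3 followed at 104, 103 and 100.1. The mean of log2(FPKM + 1) over the 33 members was 4.08 to 4.14 in untreated SUDHL5, whereas HT lay at 2.45 to 2.62, OCI-LY19 at 2.41 to 2.49 and OCI-LY3 at 1.97 to 1.98. SUDHL5 therefore stood apart by more than the spread of any line, and OCI-LY3 stood lowest. Against OCI-LY3, untreated SUDHL5 was called higher in 28 of 29 members and lower in 0, with a median difference of 2.35 against 0.03 over all genes, of which 35.7% were called higher and 30.3% lower. At unadjusted limma p below 0.05 the count lower was also 0. Against OCI-LY19 the counts were 26 higher and 3 lower (median 2.10, all genes -0.06, with 32.1% called higher and 38.8% lower), and against HT 24 and 5 (1.62, all genes -0.11, with 27.1% called higher and 39.9% lower). Other pairs of lines differed less, with 19 members higher and 2 lower in HT than in OCI-LY3 (median 0.63; 40.6% of all genes called higher and 21.5% lower). OCI-LY19 was higher than OCI-LY3 in 12 and lower in 3 (37.0% called higher and 25.8% lower). It was higher than HT in 9 and lower in 14 (28.6% called higher and 35.8% lower). An F test over the 4 untreated lines called 29 of 29 members, but 90.5% of all genes passed the same test. All SUDHL5 libraries carry the same tag in their library names, and all HT libraries another, so line and tag cannot be told apart in these comparisons.

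**Figure D2:**
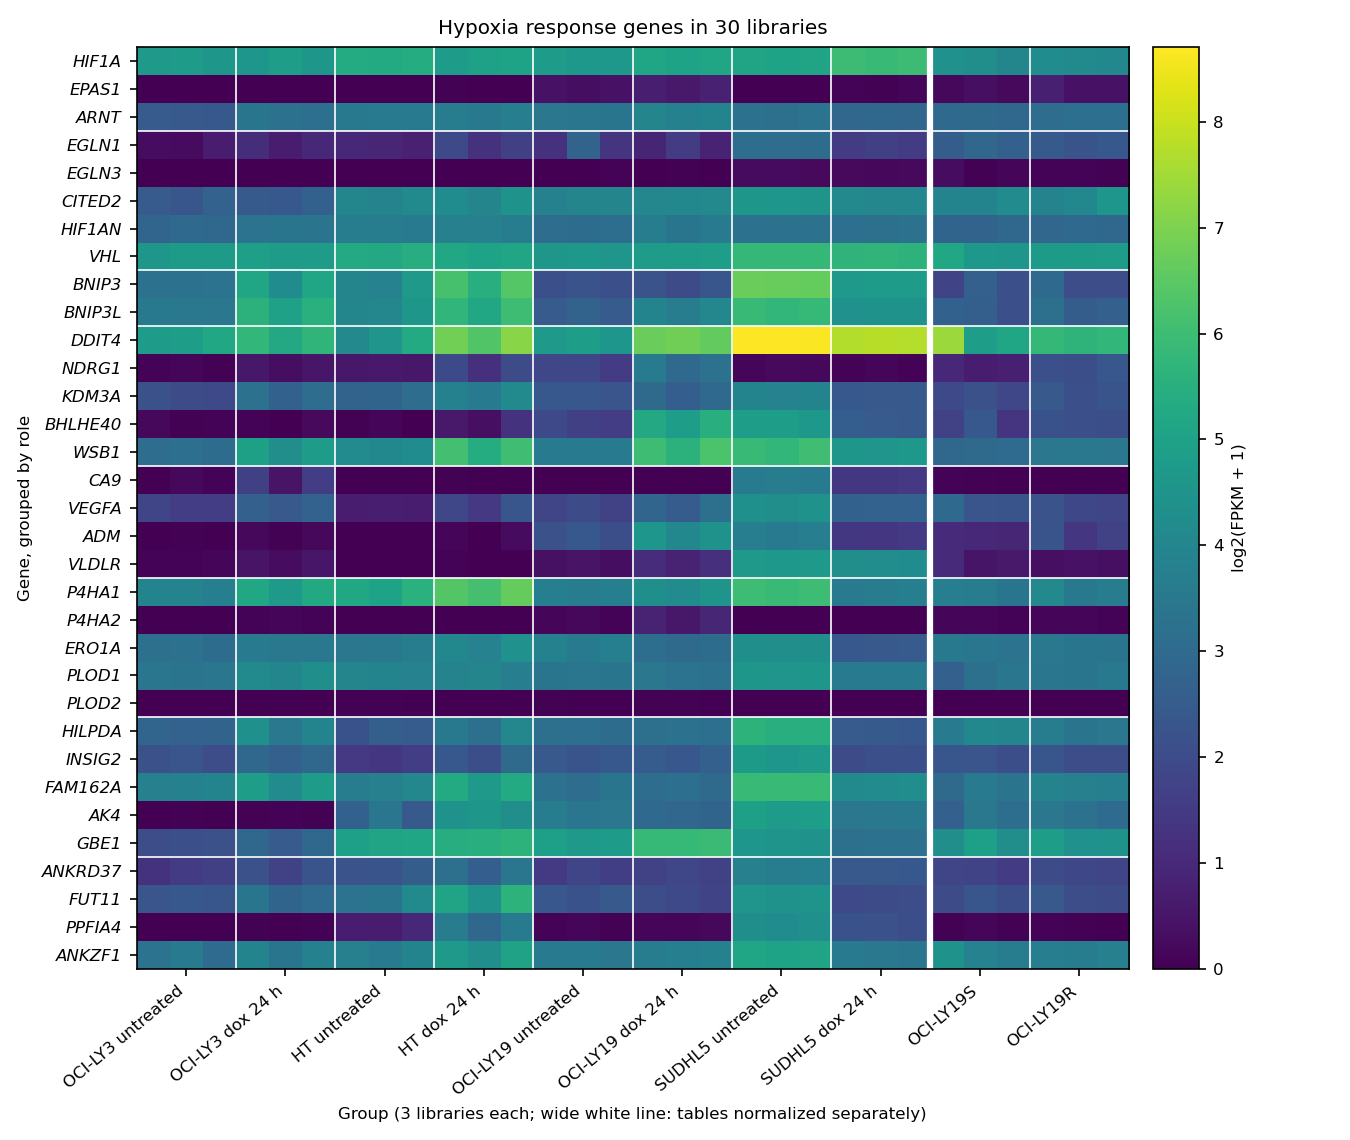
Level of each of the 33 members, as log2(FPKM + 1) by colour, in all 30 libraries, with 3 libraries a group and genes ordered by role. The untreated SUDHL5 libraries are the brightest for most members, and the wide white line parts 2 tables that were normalized separately.

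After doxorubicin, most tested members rose in OCI-LY3 and HT, a mixed set rose or fell in OCI-LY19, and nearly all fell in SUDHL5. In OCI-LY3, 21 of 29 (72.4%) were called higher and 0 lower, where 40.4% of all genes were called higher and 14.3% lower (54.7% either way), and the median change was 0.62 against 0.16 over all genes. At unadjusted limma p below 0.05, and with voom on recovered reads, 0 were lower as well. In HT, 19 (65.5%) were called higher and 2 lower, against 22.9% and 9.41% of all genes (32.3% either way), with a median of 0.90 against 0.06. In OCI-LY19, 15 (51.7%) were higher and 3 lower, against 34.5% and 23.7% (58.2% either way), with a median of 0.22 against 0.08. In SUDHL5, 1 was higher and 25 (86.2%) lower, against 18.6% and 19.9% (38.5% either way), with a median of -1.48 against 0.001. Counts in OCI-LY19 therefore lay nearest to those of all genes, and counts in SUDHL5 farthest. Calls of at least 1 (log2) in size numbered 6 rises in OCI-LY3, 13 in HT, 8 in OCI-LY19 and 21 falls in SUDHL5, where 5.7%, 1.05%, 7.58% and 1.4% of all genes, in the same order, passed that rule. The libraries of both states did not overlap in 23 rises in OCI-LY3, 20 rises and 2 falls in HT, 17 rises and 3 falls in OCI-LY19, and 1 rise and 27 falls in SUDHL5. Over all genes tested, 42.5%, 29.8%, 36.7% and 29.3% rose without overlap in these lines, in the same order, and 14.9%, 12.5%, 24.5% and 30.6% fell.

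**Figure D3:**
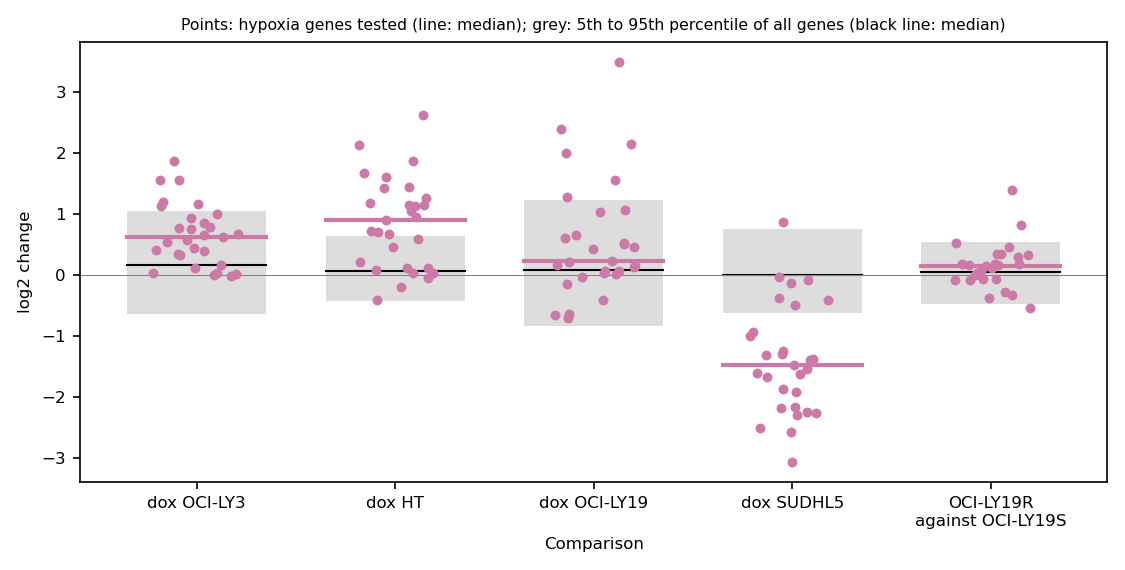
Change (log2) of each tested member in the 4 doxorubicin comparisons and in OCI-LY19R against OCI-LY19S, as points with a line at their median, beside the 5th to 95th percentile of all genes tested (grey box, black line at the median). The members lie mostly above the box's median in OCI-LY3 and HT (medians 0.62 and 0.90) and below it in SUDHL5 (median -1.48).

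Counts in OCI-LY3 depended on the scaling, since the median of all genes moved there too. Among all genes called in OCI-LY3, 73.9% were higher, but median-of-ratios scaling made this 51.3% and quantile normalization 50.9%. The median change of all genes went from 0.16 to 0.01 with the first. Under either scaling 15 of 29 members were called higher, against 26.8% and 24.6% of all genes tested. The median of the members was 0.43 and 0.34. With the same 2 scalings, the share of higher calls among all genes called moved from 70.9% to 55.7% and 52.2% in HT. In OCI-LY19 it moved from 59.3% to 51.7% and 44.7%. Under both, 19 members were called higher in HT, against 16.4% and 14% of all genes tested. In OCI-LY19, 14 members were called higher under both, against 29.7% and 25.1%. In OCI-LY19R against OCI-LY19S the share of higher calls among all genes called went from 57.0% to 44.9% and 47.0%. There 2 members were called higher under both, against 2.33% and 2.36% of all genes tested. In SUDHL5, 25 members were called lower under each scaling, against 18.9% and 20.9% of all genes tested.

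Of the HIF subunit genes, HIF1A moved against most members in HT and SUDHL5, and ARNT with them in OCI-LY3 and SUDHL5. HIF1A (ENSG00000100644.17, chromosome 14, 61695513 to 61748259, plus strand, GRCh38 in GENCODE 29) encodes the oxygen-regulated alpha subunit, and its exons overlap the antisense gene HIF1A-AS1. In OCI-LY3, HIF1A stood at 24.96, 27.4 and 23.4 FPKM untreated and 22.7, 28.8 and 23.4 after the drug. In HT, HIF1A stood at 40.1, 39.4 and 41.2 FPKM untreated and 27.1, 30.8 and 31.8 after the drug. The groups overlapped in OCI-LY3, whereas every treated HT library lay below the untreated ones. In OCI-LY19, HIF1A stood at 26.2, 24.1 and 24.2 FPKM untreated and 34.6, 31.8 and 34.5 after the drug. In SUDHL5, HIF1A stood at 33.03, 31.8 and 33.2 FPKM untreated and 62.04, 57.97 and 61.5 after the drug. Both lines had treated libraries above all untreated ones, and HIF1A was the only tested member called higher in SUDHL5 (0.87 ± 0.08, adjusted p = 3.78e-08). It rose in OCI-LY19 (0.42 ± 0.08, adjusted p = 0.000104), fell in HT (-0.42 ± 0.08, adjusted p = 0.000403) and was not called in OCI-LY3 (-0.02 ± 0.08, adjusted p = 0.864), where median-of-ratios scaling gave -0.29 (adjusted p = 0.0063). The difference between the responses of SUDHL5 and HT was 1.29 ± 0.11, adjusted p = 3.61e-08.

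ARNT (ENSG00000143437.21, chromosome 1, 150809705 to 150876768, minus strand) encodes the constant partner of the alpha subunits. In OCI-LY3, ARNT stood at 4.66, 4.34 and 4.24 FPKM untreated and 9.39, 8.68 and 8.07 after the drug, and in OCI-LY19 at 9.84, 9.603 and 9.52 FPKM untreated and 14.5, 13.3 and 14.3 after the drug. In SUDHL5, ARNT stood at 8.82, 8.26 and 9.03 FPKM untreated and 6.32, 6.59 and 6.31 after the drug. Treated libraries were all higher in the first 2 lines and all lower in SUDHL5. HT libraries overlapped, at 10.4, 10.6 and 10.8 FPKM untreated and 11.8, 10.6 and 12.4 after the drug. ARNT rose in OCI-LY3 (0.84 ± 0.06, adjusted p = 8.76e-10) and OCI-LY19 (0.50 ± 0.06, adjusted p = 5.19e-07), fell in SUDHL5 (-0.39 ± 0.06, adjusted p = 2.47e-05) and was not called in HT (0.12 ± 0.06, adjusted p = 0.141). EPAS1, the second alpha subunit, was near or at 0 outside OCI-LY19. In OCI-LY19, EPAS1 stood at 0.34998, 0.252 and 0.352 FPKM untreated and 0.643, 0.528 and 0.753 after the drug, and in SUDHL5 at 0.0156, 0.0106 and 0 FPKM untreated and 0.0629, 0.04198 and 0.0768 after the drug. In HT, EPAS1 stood at 0, 0 and 0 FPKM untreated and 0.0341, 0.00716 and 0.00465 after the drug, and in OCI-LY3 at 0, 0 and 0.00536 FPKM untreated and 0, 0 and 0.0114 after the drug. All lay below the level tested, and only in OCI-LY19 did every library exceed 0.2 FPKM.

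Among the genes of oxygen sensing and HIF turnover, 2 of 4 tested were higher in OCI-LY3 and 0 higher and 1 lower in HT. In OCI-LY19, 2 were higher and 1 lower, and in SUDHL5 2 were lower. All genes were called higher in shares of 40.4%, 22.9% and 34.5% in OCI-LY3, HT and OCI-LY19. They were called lower in shares of 9.41%, 23.7% and 19.9% in HT, OCI-LY19 and SUDHL5. Counts over so few genes were not tested against these shares. EGLN1 (ENSG00000135766.9, chromosome 1, 231363751 to 231425044, minus strand) encodes PHD2, the main oxygen-dependent prolyl hydroxylase of HIF, and is itself a HIF target. In SUDHL5, EGLN1 stood at 7.85, 7.63 and 7.51 FPKM untreated and 1.84, 2.15 and 1.96 after the drug, and every treated library lay below the untreated ones (-1.54 ± 0.28, adjusted p = 0.00022). In OCI-LY19, EGLN1 stood at 1.36, 5.87 and 1.52 FPKM untreated and 0.877, 1.82 and 0.773 after the drug, so 1 untreated library stood far above the others. It was called lower there (-0.71 ± 0.28, adjusted p = 0.0395), but without that library (replicate 2) the change was -0.21 with adjusted p = 0.388. The call also ended without treated replicate 1 (-0.62, adjusted p = 0.119) or 3 (-0.58, adjusted p = 0.139). In OCI-LY3, EGLN1 stood at 0.213, 0.197 and 0.582 FPKM untreated and 1.198, 0.634 and 0.974 after the drug. In HT, EGLN1 stood at 0.955, 0.896 and 0.743 FPKM untreated and 2.75, 1.35 and 2.14 after the drug. The treated libraries were all higher in both lines, although neither change was called (0.54 ± 0.28, adjusted p = 0.117; 0.70 ± 0.28, adjusted p = 0.067). Their standard error is pooled over the 4 lines, OCI-LY19 with its outlying library among them. In OCI-LY3 a pseudocount of 0.1 gave 1.34 (adjusted p = 0.0137), and scaling each library to the same FPKM sum 0.99 (adjusted p = 0.0361). With HT fitted alone the change in HT had adjusted p = 0.0265, and with the library-name tag as covariate 0.0286. With the replicate number as a block, which pairs the HT libraries, it had adjusted p = 0.0101. Treated HT replicate 2 bore on several such values, and without it EGLN1 (0.88), CITED2 (0.33) and ARNT (0.17) were called higher. EGLN3, a second prolyl hydroxylase, was listed at 0 in all libraries of OCI-LY3 and HT. It stood at 0.0193, 0.0212 and 0.0573 FPKM untreated and 0, 0.0253 and 0.0129 after the drug in OCI-LY19 and at 0.191, 0.204 and 0.167 FPKM untreated and 0.158, 0.1403 and 0.1598 after the drug in SUDHL5.

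VHL (ENSG00000134086.8, chromosome 3, 10141008 to 10152220, plus strand), the substrate receptor that marks hydroxylated HIF, moved little. In SUDHL5, VHL stood at 54.7, 55.2 and 54.7 FPKM untreated and 50.3, 51.3 and 48.99 after the drug, and in HT at 38.6, 37.2 and 42.4 FPKM untreated and 35.2, 32.3 and 34.96 after the drug. In OCI-LY3, VHL stood at 23.4, 25.7 and 25.9 FPKM untreated and 29.5, 27.02 and 27.2 after the drug, and in OCI-LY19 at 23.3, 23.9 and 22.2 FPKM untreated and 27.4, 26.6 and 27.5 after the drug. None of the 4 lines had overlapping groups, but the shifts were small. VHL was called higher in OCI-LY3 (0.15 ± 0.05, adjusted p = 0.021) and OCI-LY19 (0.22 ± 0.05, adjusted p = 0.00137), lower in HT (-0.20 ± 0.05, adjusted p = 0.00782) and was not called in SUDHL5 (-0.13 ± 0.05, adjusted p = 0.0693). With median-of-ratios scaling the OCI-LY3 value turned to -0.11 (adjusted p = 0.0953) and the OCI-LY19 value was 0.12 (adjusted p = 0.0627). The call in HT ended without untreated replicate 3 (-0.15, adjusted p = 0.0551), and that in OCI-LY3 without replicate 1 of either state (0.11). With each line fitted alone, VHL was called lower in SUDHL5 (adjusted p = 0.00509). In such fits it was not called in HT (adjusted p = 0.0819) or OCI-LY3 (adjusted p = 0.127). HIF1AN encodes FIH, the asparagine hydroxylase that blocks the coactivator contact of HIF. In OCI-LY3, HIF1AN stood at 6.22, 6.94 and 6.53 FPKM untreated and 9.05, 9.34 and 9.22 after the drug, and in OCI-LY19 at 7.697, 7.53 and 7.85 FPKM untreated and 11.9, 9.51 and 11.4 after the drug. In HT, HIF1AN stood at 11.9, 11.8 and 11.3 FPKM untreated and 12.7, 12.9 and 11.7 after the drug, and in SUDHL5 at 8.72, 8.52 and 8.63 FPKM untreated and 8.11, 8.32 and 8.72 after the drug. It was higher without overlap in OCI-LY3 (0.43 ± 0.06, adjusted p = 6.50e-06; 0.21 under quantile normalization and 0.19 under median-of-ratios scaling) and OCI-LY19 (0.45 ± 0.06, adjusted p = 3.48e-06) and overlapped in HT (0.08) and SUDHL5 (-0.04). CITED2, a target that competes with HIF for its coactivator, fell in SUDHL5 from 22.6 ± 0.892 to 15.7 ± 0.445 FPKM (SD, n = 3; -0.50 ± 0.11, adjusted p = 0.00104) and was not called elsewhere. With the replicate block, CITED2 in HT had 0.20 (adjusted p = 0.0125).

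**Figure D4:**
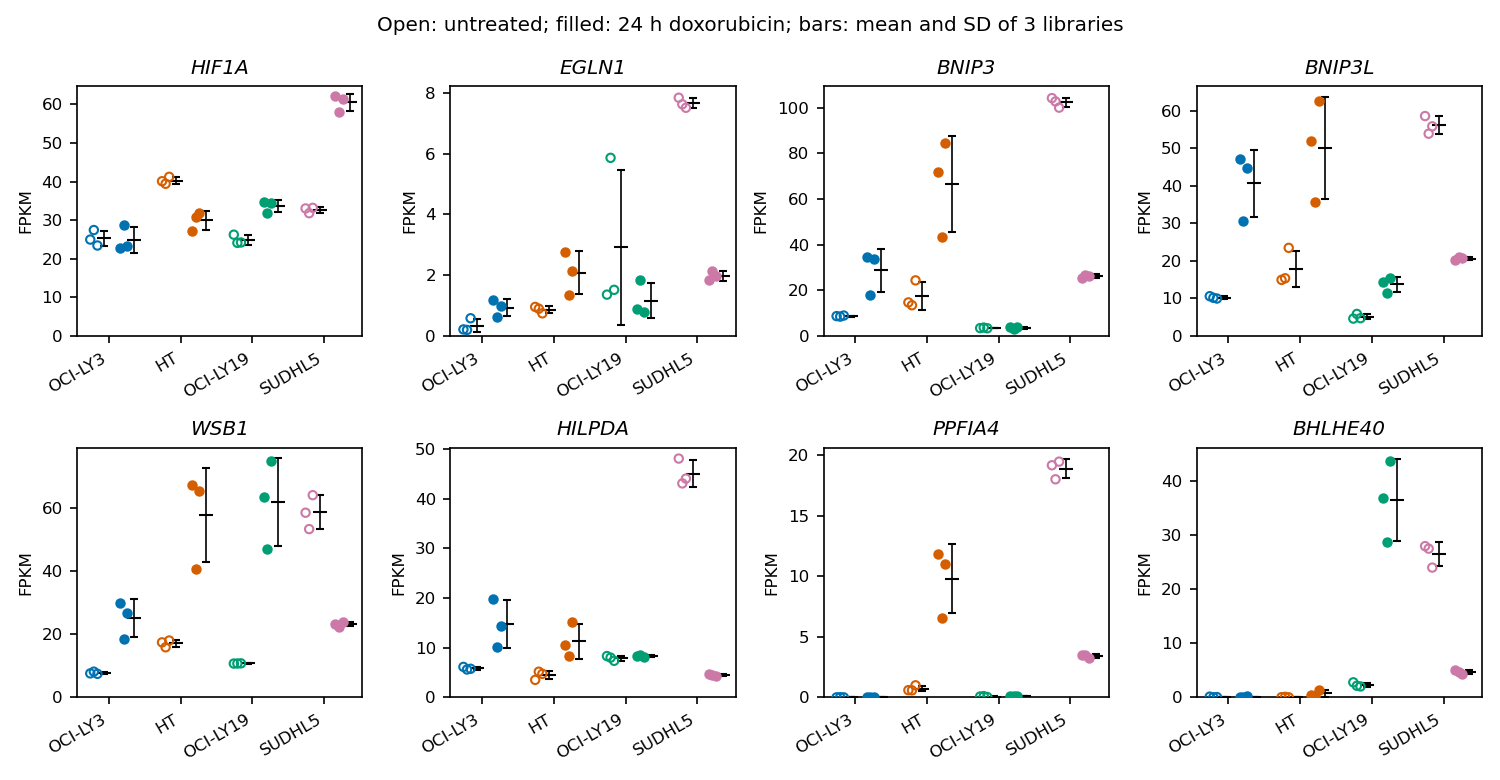
FPKM of 8 members in every library of the 4 lines, untreated (open) and after 24 h of doxorubicin (filled), with the mean and SD of 3 libraries. HIF1A is highest in treated SUDHL5 (58.0 to 62.0), whereas the 7 other genes are far lower in treated than in untreated SUDHL5, and treated HT and SUDHL5 cross over for BNIP3 and BNIP3L.

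The mitophagy receptors rose in OCI-LY3 and HT and fell in SUDHL5. BNIP3 (ENSG00000176171.11, chromosome 10, 131966455 to 131982013, minus strand) sits on the outer mitochondrial membrane and tethers mitochondria to the autophagy machinery. In OCI-LY3, BNIP3 stood at 8.67, 8.46 and 8.92 FPKM untreated and 34.4, 17.97 and 33.8 after the drug. In HT, BNIP3 stood at 14.7, 13.4 and 24.3 FPKM untreated and 71.7, 43.5 and 84.5 after the drug. In both lines each treated library exceeded every untreated one, and treated replicate 2 was the lowest of its 3. In SUDHL5, BNIP3 stood at 104, 103 and 100.1 FPKM untreated and 25.2, 26.9 and 26.5 after the drug, with no overlap downward. In OCI-LY19, BNIP3 stood at 3.41, 3.66 and 3.34 FPKM untreated and 3.703, 3.08 and 4.02 after the drug, and the groups overlapped. The changes were 1.56 ± 0.23, adjusted p = 9.88e-06 in OCI-LY3, 1.86 ± 0.23, adjusted p = 7.48e-06 in HT, -1.93 ± 0.23, adjusted p = 1.57e-06 in SUDHL5 and 0.04 ± 0.23, adjusted p = 0.928 in OCI-LY19. BNIP3L, its paralog, differed from BNIP3 in OCI-LY19, where it stood at 4.61, 5.85 and 4.71 FPKM untreated and 14.3, 11.5 and 15.3 after the drug and was called higher (1.28 ± 0.18, adjusted p = 6.96e-06). In OCI-LY3, BNIP3L stood at 10.6, 10.1 and 9.95 FPKM untreated and 46.98, 30.5 and 44.6 after the drug, and in HT at 14.9, 15.3 and 23.4 FPKM untreated and 51.9, 35.7 and 62.6 after the drug. SUDHL5 libraries stood at 58.5, 53.8 and 55.8 FPKM untreated and 20.2, 20.9 and 20.7 after the drug. All 4 lines lacked overlap for BNIP3L, and only SUDHL5 went down (-1.40 ± 0.18, adjusted p = 5.35e-06).

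Growth control and transcription genes held the largest rise of any member on log2(FPKM + 1), that of BHLHE40 in OCI-LY19. Of 5 tested, 5 were higher in OCI-LY19, 5 in HT and 3 in OCI-LY3, against 34.5%, 22.9% and 40.4% of all genes. In SUDHL5 4 were lower, against 19.9% of all genes. BHLHE40 (ENSG00000134107.5, chromosome 3, 4979116 to 4985323, plus strand) encodes a transcriptional repressor that also acts in the circadian clock, and overlaps BHLHE40-AS1 on the other strand. In OCI-LY19, BHLHE40 stood at 2.78, 2.14 and 2.02 FPKM untreated and 36.8, 28.6 and 43.7 after the drug, and in SUDHL5 at 27.9, 27.5 and 23.96 FPKM untreated and 5.13, 4.67 and 4.37 after the drug. These are opposite shifts without overlap (3.48 ± 0.17, adjusted p = 3.27e-12, and -2.26 ± 0.17, adjusted p = 4.57e-09). In OCI-LY3, BHLHE40 stood at 0.141, 0.0323 and 0.0556 FPKM untreated and 0.0725, 0.0237 and 0.166 after the drug, and in HT at 0.0392, 0.0987 and 0.0185 FPKM untreated and 0.513, 0.274 and 1.45 after the drug. The OCI-LY3 groups overlapped at this low level, and HT was called higher (0.67 ± 0.17, adjusted p = 0.00545; 2.25 with a pseudocount of 0.1, and 0.40 without treated replicate 3). On log2(FPKM + 1) the responses of OCI-LY19 and HT differed by 2.81 ± 0.24, adjusted p = 2.90e-08. The ratio of treated to untreated mean FPKM was similar, at 15.7 in OCI-LY19 and 14.3 in HT. The difference therefore depends on that scale and on the low level in HT.

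WSB1 (ENSG00000109046.15, chromosome 17, 27294076 to 27315926, plus strand), a substrate receptor of a ubiquitin ligase, was called higher in OCI-LY3, HT and OCI-LY19 and lower in SUDHL5. In OCI-LY3, WSB1 stood at 7.61, 8.16 and 7.47 FPKM untreated and 30.1, 18.5 and 26.8 after the drug, and in HT at 17.4, 15.9 and 18.03 FPKM untreated and 67.4, 40.6 and 65.4 after the drug. In OCI-LY19, WSB1 stood at 10.7, 10.7 and 10.8 FPKM untreated and 63.7, 47.01 and 74.8 after the drug, and in SUDHL5 at 58.5, 53.4 and 64.1 FPKM untreated and 23.3, 22.4 and 23.8 after the drug. No groups overlapped, and the 3 untreated OCI-LY19 libraries were nearly equal. The changes were 1.55 ± 0.18, adjusted p = 4.34e-07 in OCI-LY3, 1.66 ± 0.18, adjusted p = 1.46e-06 in HT, 2.39 ± 0.18, adjusted p = 9.99e-10 in OCI-LY19 and -1.30 ± 0.18, adjusted p = 7.91e-06 in SUDHL5.

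DDIT4 (ENSG00000168209.5, chromosome 10, 72273920 to 72276036, plus strand) encodes REDD1, an inhibitor of mTORC1, and responds to several stresses. In SUDHL5, DDIT4 stood at 415, 417 and 403 FPKM untreated and 209, 215 and 215 after the drug, and although it fell (-0.95 ± 0.23, adjusted p = 0.00256), SUDHL5 was still the highest of the 4 treated lines. In HT, DDIT4 stood at 16.2, 22.2 and 39.4 FPKM untreated and 116, 79.4 and 141 after the drug, and in OCI-LY19 at 24.6, 28.5 and 22.9 FPKM untreated and 103, 111 and 97.9 after the drug. In OCI-LY3, DDIT4 stood at 27.4, 27.7 and 36.1 FPKM untreated and 53.7, 37.1 and 51.5 after the drug, where the lowest treated library barely exceeded the highest untreated one. It rose in HT (2.12 ± 0.23, adjusted p = 1.74e-06) and OCI-LY19 (2.002 ± 0.23, adjusted p = 3.79e-07), and was called higher in OCI-LY3 (0.62 ± 0.23, adjusted p = 0.0277). The OCI-LY3 call ended with median-of-ratios scaling (0.35, adjusted p = 0.23). It also ended with 1 library left out, for untreated replicates 1 and 2 and treated replicates 1 and 3 (0.52 to 0.56). DDIT4-AS1 overlaps the gene on the other strand.

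NDRG1, a stress-induced gene linked to differentiation and growth arrest, was low in SUDHL5, in contrast to most members. In OCI-LY19, NDRG1 stood at 2.64, 2.58 and 1.83 FPKM untreated and 10.9, 6.88 and 8.78 after the drug, and in HT at 0.486, 0.504 and 0.466 FPKM untreated and 2.91, 1.26 and 2.97 after the drug. Both rose without overlap (1.55 ± 0.17, adjusted p = 1.64e-07, and 1.14 ± 0.17, adjusted p = 4.18e-05; the latter 1.99 with a pseudocount of 0.1). In OCI-LY3, NDRG1 stood at 0.0573, 0.0758 and 0.0391 FPKM untreated and 0.467, 0.246 and 0.457 after the drug, and in SUDHL5 at 0.1203, 0.161 and 0.1298 FPKM untreated and 0.0706, 0.0829 and 0.0607 after the drug. These low levels moved apart without overlap, upward in OCI-LY3 (0.39 ± 0.17, adjusted p = 0.0533; 1.61 with adjusted p = 3.51e-05 at a pseudocount of 0.1, and called without treated replicate 2 at 0.47) and downward in SUDHL5 (-0.09 ± 0.17, adjusted p = 0.752), but neither was called. KDM3A, a histone H3K9 demethylase and HIF target, moved in all 4 lines. In OCI-LY3, KDM3A stood at 3.52, 3.01 and 2.75 FPKM untreated and 8.49, 5.54 and 7.66 after the drug, and in HT at 5.899, 6.01 and 7.62 FPKM untreated and 13.1, 10.8 and 17.03 after the drug. In OCI-LY19, KDM3A stood at 4.33, 4.104 and 3.88 FPKM untreated and 7.03, 5.07 and 6.95 after the drug, and in SUDHL5 at 14.3, 13.4 and 14.1 FPKM untreated and 4.32, 4.36 and 4.41 after the drug. Treated libraries lay above untreated ones in the first 3 lines and below in SUDHL5. The changes were 0.99, 0.95, 0.52 and -1.48 in this order of lines, and the call in OCI-LY19 ended with quantile normalization (0.35, adjusted p = 0.0545).

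Secreted and membrane members fell in SUDHL5 (4 of 4), where 19.9% of all genes were called lower. They rose in 3 of 4 in OCI-LY3 and OCI-LY19, but in 1 of 4 in HT, against 40.4%, 34.5% and 22.9% of all genes. VEGFA (ENSG00000112715.24, chromosome 6, 43770184 to 43786487, plus strand), the main signal for new blood vessels, was the 1 that rose in HT. In OCI-LY3, VEGFA stood at 2.56, 2.03 and 2.0003 FPKM untreated and 5.29, 4.35 and 5.597 after the drug, and in HT at 0.585, 0.657 and 0.622 FPKM untreated and 2.61, 1.72 and 4.01 after the drug. In OCI-LY19, VEGFA stood at 2.505, 3.08 and 2.19 FPKM untreated and 6.23, 4.85 and 8.21 after the drug, and in SUDHL5 at 19.6, 18.8 and 20.5 FPKM untreated and 5.58, 5.75 and 5.73 after the drug. No groups overlapped. It rose by 0.93 ± 0.17, adjusted p = 0.000111 in OCI-LY3, 1.18 ± 0.17, adjusted p = 3.70e-05 in HT and 1.03 ± 0.17, adjusted p = 3.09e-05 in OCI-LY19, and the SUDHL5 change was -1.62 ± 0.17, adjusted p = 2.88e-07. The value in HT was 1.92 with a pseudocount of 0.1, and that in OCI-LY3 was 0.58 with quantile normalization.

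ADM, which encodes the vasodilator peptide adrenomedullin, was all but absent from OCI-LY3 and HT. It stood at 0.0164, 0.0326 and 0 FPKM untreated and 0.125, 0.0358 and 0.143 after the drug in OCI-LY3 and at 0.0197, 0.0166 and 0 FPKM untreated and 0.0803, 0 and 0.1895 after the drug in HT. Neither line was called. In OCI-LY19, ADM stood at 3.4998, 4.26 and 3.25 FPKM untreated and 22.7, 15.6 and 21.3 after the drug, and in SUDHL5 at 12.3, 10.9 and 12.1 FPKM untreated and 1.67, 1.63 and 1.76 after the drug. Treatment thus moved it up in one line and down in the other without overlap (2.15 ± 0.10, adjusted p = 2.63e-12, and -2.25 ± 0.10, adjusted p = 4.84e-12). CA9, a cell surface carbonic anhydrase that is widely used as a marker of low oxygen, exceeded 1 FPKM in the SUDHL5 libraries and in 2 of 3 treated OCI-LY3 libraries, and in no other of the 30. In SUDHL5, CA9 stood at 10.9, 11.8 and 10.8 FPKM untreated and 1.67, 1.64 and 1.71 after the drug, and in OCI-LY3 at 0, 0.141 and 0.07297 FPKM untreated and 2.15, 0.388 and 1.97 after the drug. SUDHL5 fell (-2.19 ± 0.18, adjusted p = 1.71e-08) and OCI-LY3 rose (1.14 ± 0.18, adjusted p = 2.97e-05; 3.03 with a pseudocount of 0.1), both without overlap, though treated OCI-LY3 replicate 2 stood far below the other 2. In HT, CA9 was listed at 0, 0 and 0 FPKM untreated and 0.0387, 0 and 0.0211 after the drug, and in OCI-LY19 at 0, 0 and 0 FPKM untreated and 0, 0.0193 and 0 after the drug. VLDLR, a lipoprotein receptor, was high in SUDHL5 alone (24.6 ± 0.5096 to 18.2 ± 0.547 FPKM, SD, n = 3; -0.41 ± 0.07, adjusted p = 0.000183, adjusted p = 0.0908 at a pseudocount of 0.1). It rose in OCI-LY19 (0.66 ± 0.07, adjusted p = 3.29e-07; 1.52 at that pseudocount and 0.35 with quantile normalization) and in OCI-LY3 (0.32 ± 0.07, adjusted p = 0.00113; 1.34 at that pseudocount), where quantile normalization ended the call (0.14, adjusted p = 0.151).

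Collagen modification and disulfide formation genes fell in SUDHL5 in 3 of 3 tested (19.9% of all genes) and rose in OCI-LY3 in 3 of 3 (40.4%). In HT 2 were higher (22.9%), and in OCI-LY19 1 was higher (34.5%) and 1 lower (23.7%). P4HA1 (ENSG00000122884.12, chromosome 10, 73007217 to 73096974, minus strand), the catalytic subunit of collagen prolyl hydroxylase, was among the highest members. In OCI-LY3, P4HA1 stood at 14.3, 13.9 and 12.6 FPKM untreated and 36.2, 24.9 and 38.1 after the drug, and in HT at 35.02, 32.4 and 45.9 FPKM untreated and 82.04, 69.03 and 98.9 after the drug. In OCI-LY19, P4HA1 stood at 12.7, 12.01 and 12.6 FPKM untreated and 19.4, 17.4 and 21.5 after the drug, and in SUDHL5 at 63.5, 57.98 and 63.6 FPKM untreated and 10.98, 11.8 and 12.5 after the drug. The 3 first lines rose and SUDHL5 fell, none with overlap. The changes were 1.20, 1.12, 0.60 and -2.30 ± 0.14, adjusted p = 2.73e-10. After the drug, SUDHL5 held less P4HA1 than any other line, where untreated it had held the most.

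ERO1A, the oxidase that drives disulfide formation in the endoplasmic reticulum, fell in both OCI-LY19 and SUDHL5. In OCI-LY19, ERO1A stood at 13.3, 10.9 and 12.5 FPKM untreated and 7.77, 7.08 and 7.37 after the drug, and in SUDHL5 at 19.04, 18.7 and 19.4 FPKM untreated and 4.29, 4.37 and 4.698 after the drug. In OCI-LY3, ERO1A stood at 8.35, 8.56 and 7.41 FPKM untreated and 11.4, 10.1 and 10.1 after the drug, and in HT at 9.82, 10.3 and 11.5 FPKM untreated and 15.9, 13.4 and 20.3 after the drug. None of the groups overlapped. ERO1A fell in OCI-LY19 (-0.65 ± 0.10, adjusted p = 1.98e-05) and SUDHL5 (-1.88 ± 0.10, adjusted p = 4.43e-11) and rose in HT (0.59 ± 0.10, adjusted p = 0.000256). In OCI-LY3 the rise (0.34 ± 0.10, adjusted p = 0.00806) was lost with median-of-ratios scaling (0.09, adjusted p = 0.514) and quantile normalization (0.17, adjusted p = 0.209). PLOD1, a collagen lysyl hydroxylase, stood at 9.59, 9.28 and 9.68 FPKM untreated and 16.96, 15.02 and 19.3 after the drug in OCI-LY3 and at 23.4, 22.1 and 23.3 FPKM untreated and 10.7, 11.2 and 10.8 after the drug in SUDHL5. Those groups did not overlap (0.78 ± 0.07, adjusted p = 2.20e-08, and -1.01 ± 0.07, adjusted p = 1.14e-09). HT, at 14.5, 14.1 and 13.6 FPKM untreated and 13.9, 14.4 and 12.3 after the drug, and OCI-LY19, at 9.401, 9.59 and 9.41 FPKM untreated and 9.85, 8.96 and 8.67 after the drug, overlapped between states. P4HA2 and PLOD2, their paralogs, lay below the level tested. P4HA2 was highest in OCI-LY19, at 0.10004, 0.128 and 0.0677 FPKM untreated and 0.803, 0.479 and 0.915 after the drug, and at most 0.0783 FPKM in the other 3 lines.

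Metabolism and lipid storage genes included the deepest fall. All 5 were lower in SUDHL5 (19.9% of all genes) and higher in HT (22.9%), and 4 were higher in OCI-LY3 (40.4%). In OCI-LY19 1 was higher (34.5%) and 1 lower (23.7%). HILPDA (ENSG00000135245.10, chromosome 7, 128455849 to 128458418, plus strand) encodes a lipid droplet protein that inhibits fat breakdown, and shares exon bases with 2 genes on its own strand. In SUDHL5, HILPDA stood at 48.1, 43.1 and 44.1 FPKM untreated and 4.62, 4.55 and 4.33 after the drug, the largest fall of any member on log2(FPKM + 1) (-3.07 ± 0.18, adjusted p = 1.10e-10). In OCI-LY3, HILPDA stood at 6.15, 5.62 and 5.76 FPKM untreated and 19.7, 10.1 and 14.4 after the drug, and in HT at 3.53, 5.18 and 4.74 FPKM untreated and 10.6, 8.27 and 15.2 after the drug. Both rose without overlap (1.16 ± 0.18, adjusted p = 1.96e-05, and 1.14 ± 0.18, adjusted p = 8.93e-05). In OCI-LY19, HILPDA stood at 8.33, 8.01 and 7.37 FPKM untreated and 8.25, 8.53 and 8.14 after the drug with overlap. INSIG2, a brake on cholesterol synthesis, fell almost as far in SUDHL5, standing at 25.5, 22.97 and 24.7 FPKM untreated and 3.05, 3.35 and 3.35 after the drug (-2.58 ± 0.15, adjusted p = 1.03e-10). In HT, INSIG2 stood at 1.697, 1.57 and 1.98 FPKM untreated and 4.33, 3.22 and 6.97 after the drug, and in OCI-LY3 at 3.44, 3.91 and 3.17 FPKM untreated and 6.46, 5.31 and 6.46 after the drug. Both rose without overlap (1.04 ± 0.15, adjusted p = 4.01e-05, and 0.65 ± 0.15, adjusted p = 0.00111), although the second was not called with quantile normalization (0.34, adjusted p = 0.0728). OCI-LY19 overlapped, at 4.39996, 3.82 and 4.24 FPKM untreated and 4.72, 4.12 and 5.35 after the drug.

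FAM162A, a mitochondrial protein induced by low oxygen, was called in the same lines and directions as BNIP3. In OCI-LY3, FAM162A stood at 12.96, 13.2 and 14.2 FPKM untreated and 28.3, 17.2 and 27.3 after the drug, and in HT at 11.8, 12.9 and 15.2 FPKM untreated and 38.99, 24.4 and 38.6 after the drug. In SUDHL5, FAM162A stood at 58.96, 57.1 and 58.01 FPKM untreated and 16.9, 17.2 and 18.2 after the drug, and in OCI-LY19 at 8.53, 7.66 and 9.38 FPKM untreated and 7.61, 8.16 and 7.05 after the drug. OCI-LY19 alone overlapped. The changes were 0.77 (0.51 with median-of-ratios scaling), 1.26 and -1.68 ± 0.16, adjusted p = 9.33e-08 in the 3 lines called. AK4, a mitochondrial adenylate kinase, was near 0 in OCI-LY3, at 0.00504, 0.034996 and 0.00516 FPKM untreated and 0.0288, 0.0604 and 0.0274 after the drug. In HT, AK4 stood at 5.49, 9.74 and 4.43 FPKM untreated and 21.1, 23.1 and 18.9 after the drug, and in OCI-LY19 at 11.9, 9.69 and 9.94 FPKM untreated and 6.84, 6.26 and 5.9999 after the drug. In SUDHL5, AK4 stood at 29.8, 27.1 and 27.5 FPKM untreated and 10.02, 10.2 and 10.5 after the drug. It rose in HT (1.60 ± 0.15, adjusted p = 5.40e-07) and fell in OCI-LY19 (-0.64 ± 0.15, adjusted p = 0.00139) and SUDHL5 (-1.38 ± 0.15, adjusted p = 6.84e-07), without overlap in all 3. GBE1, the glycogen branching enzyme, was the only member of this group that rose in OCI-LY19. There GBE1 stood at 29.1, 24.9 and 26.7 FPKM untreated and 56.6, 56.1 and 59.6 after the drug (1.07 ± 0.09, adjusted p = 1.10e-08). In HT, GBE1 stood at 29.1, 32.6 and 34.6 FPKM untreated and 41.8, 42.6 and 48.3 after the drug, and in OCI-LY3 at 3.19, 3.39 and 3.47 FPKM untreated and 6.73, 4.65 and 6.56 after the drug. In SUDHL5, GBE1 stood at 22.9, 21.6 and 21.1 FPKM untreated and 8.39, 8.596 and 8.697 after the drug. GBE1 lacked overlap in all 4 lines, rising by 0.45 in HT and 0.67 in OCI-LY3 (0.36 with quantile normalization), with a change of -1.26 ± 0.09, adjusted p = 3.25e-09 in SUDHL5.

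The 4 remaining members rose in HT and fell in SUDHL5, as did 6.14% of all genes. None was called in OCI-LY19, where 58.2% of all genes were. PPFIA4 (ENSG00000143847.15, chromosome 1, 203026498 to 203078740, plus strand), a liprin scaffold protein, had the widest contrast on log2(FPKM + 1). In HT, PPFIA4 stood at 0.596, 0.5798 and 0.998 FPKM untreated and 11.8, 6.57 and 11.03 after the drug, and in SUDHL5 at 19.2, 18.001 and 19.5 FPKM untreated and 3.53, 3.48 and 3.26 after the drug. Both moved without overlap (2.62 ± 0.13, adjusted p = 3.52e-10, and -2.17 ± 0.13, adjusted p = 1.57e-10). OCI-LY3, at 0.00394, 0.0195 and 0.00403 FPKM untreated and 0.0338, 0.00857 and 0.0386 after the drug, and OCI-LY19, at 0.07302, 0.1005 and 0.0316 FPKM untreated and 0.0996, 0.106 and 0.141 after the drug, held little. FUT11, a fucosyltransferase, stood at 8.86, 9.57 and 16.4 FPKM untreated and 33.2, 20.8 and 48.1 after the drug in HT and at 22.2, 20.9 and 21.7 FPKM untreated and 2.79, 2.93 and 3.15 after the drug in SUDHL5. These did not overlap (1.44 ± 0.22, adjusted p = 7.28e-05, and -2.51 ± 0.22, adjusted p = 3.35e-08). In OCI-LY3, FUT11 stood at 3.89, 4.23 and 3.99 FPKM untreated and 9.47, 5.95 and 7.22 after the drug, and in OCI-LY19 at 4.16, 3.58 and 4.45 FPKM untreated and 3.18, 2.82 and 2.45 after the drug. OCI-LY3 was called higher (0.74 ± 0.22, adjusted p = 0.00775), but not when quantile normalization (0.46, adjusted p = 0.102) or median-of-ratios scaling (0.51, adjusted p = 0.0657) was used, nor without treated replicate 1 (0.59, adjusted p = 0.0524), and OCI-LY19 was lower without overlap but not called (-0.41 ± 0.22, adjusted p = 0.126).

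ANKRD37, a small ankyrin repeat protein, stood at 3.71, 3.82 and 4.94 FPKM untreated and 8.34, 5.11 and 9.64 after the drug in HT and at 12.95, 11.6 and 12.5 FPKM untreated and 4.36, 4.41 and 4.25 after the drug in SUDHL5. In OCI-LY3, ANKRD37 stood at 1.42, 1.87 and 2.14 FPKM untreated and 3.49, 2.27 and 3.78 after the drug, and in OCI-LY19 at 1.76, 2.51 and 2.09 FPKM untreated and 2.302, 2.59 and 2.31 after the drug. Its groups overlapped in OCI-LY19 alone. It rose in HT (0.72 ± 0.17, adjusted p = 0.00244), fell in SUDHL5 (-1.32 ± 0.17, adjusted p = 3.25e-06) and was called higher in OCI-LY3 (0.56 ± 0.17, adjusted p = 0.0073), where median-of-ratios scaling gave 0.37 (adjusted p = 0.071) and quantile normalization 0.21 (adjusted p = 0.321). ANKZF1, which releases stalled chains from ribosomes, stood at 12.8, 10.98 and 14.3 FPKM untreated and 25.05, 18.6 and 31.1 after the drug in HT and at 33.9, 32.2 and 32.95 FPKM untreated and 10.7, 10.1 and 9.76 after the drug in SUDHL5. Neither line overlapped (0.90 ± 0.16, adjusted p = 0.000231, and -1.60 ± 0.16, adjusted p = 1.25e-07). In OCI-LY3, ANKZF1 stood at 9.01, 10.8 and 7.27 FPKM untreated and 14.4, 9.46 and 13.3 after the drug, and in OCI-LY19 at 11.1, 11.2 and 9.85 FPKM untreated and 11.6, 12.6 and 13.3 after the drug. The OCI-LY3 groups overlapped, and the call there (0.41 ± 0.16, adjusted p = 0.0311) ended with either scaling (0.16 and 0.25). It also ended when 1 library was left out, for replicates 1 and 3 of each state (0.28 to 0.42).

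**Figure D5:**
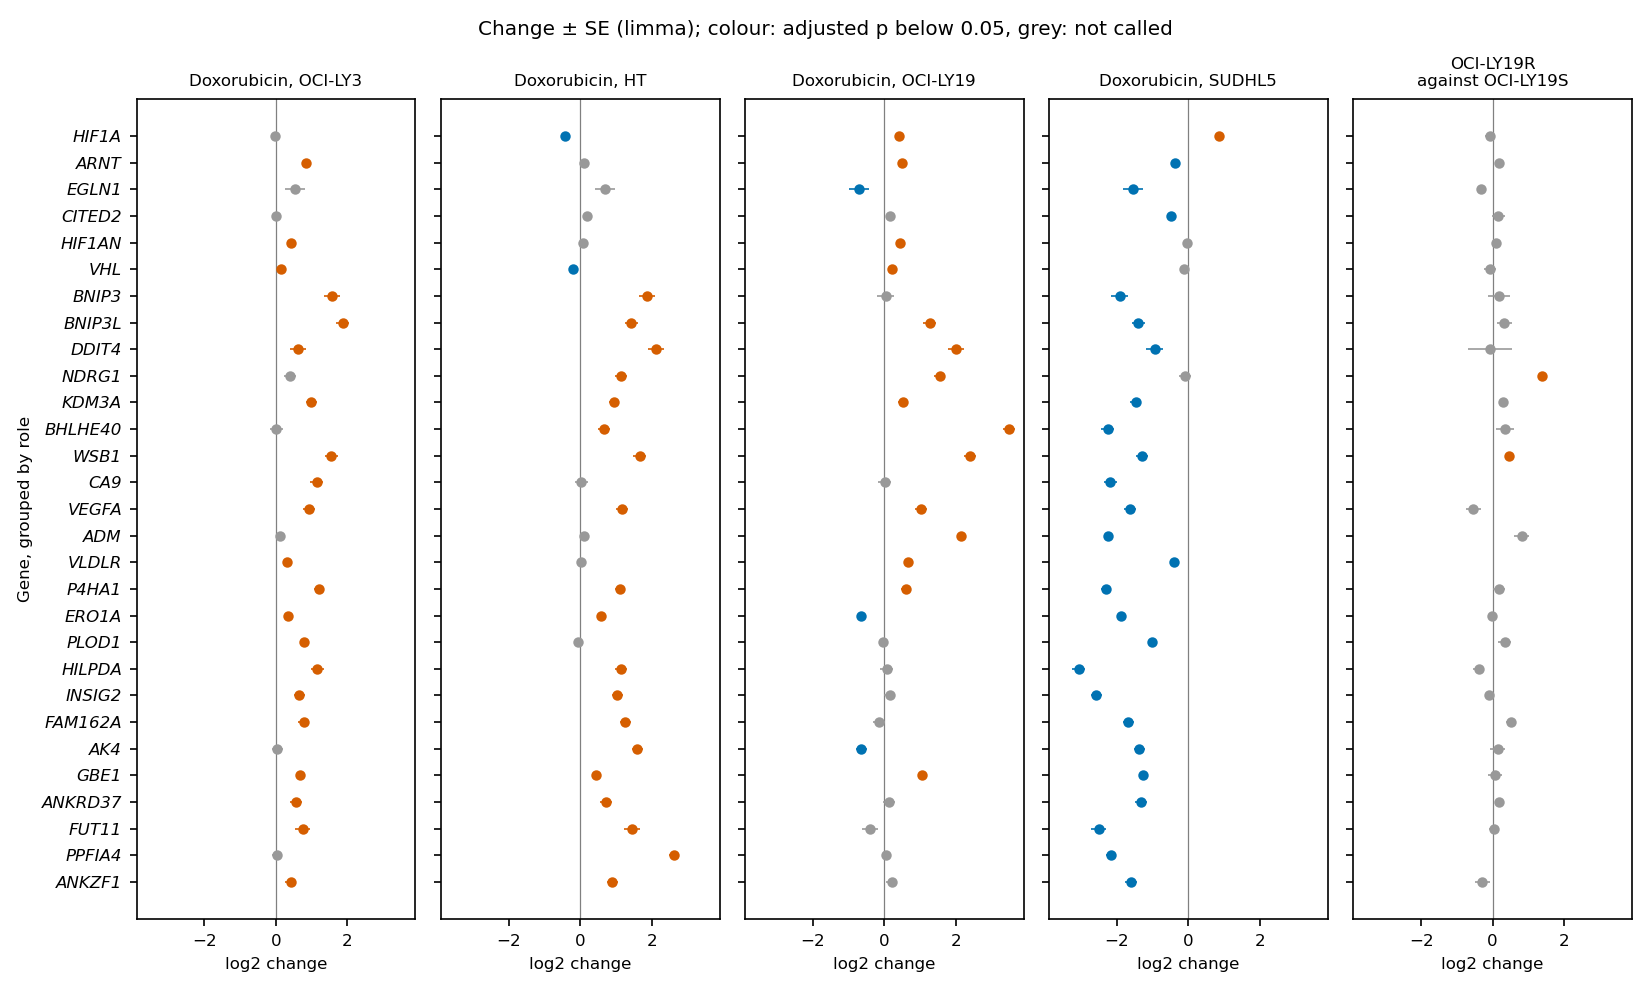
Change (log2) ± SE of each tested member in the 4 doxorubicin comparisons and in OCI-LY19R against OCI-LY19S, with members ordered by role. Colour marks an adjusted p below 0.05 (orange higher, blue lower), and SUDHL5 is blue for 25 of 29 with HIF1A the only orange point.

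The response itself differed between lines, tested as a difference of the drug changes. All 29 tested members passed an F test of unequal response over the 4 lines, where 72.2% of all genes passed. Between SUDHL5 and HT, 26 members differed downward and 1, HIF1A, upward, with a median difference of -2.47 against -0.05 over all genes, of which 23.3% differed downward. VHL and HIF1AN were the 2 not called. The largest differences were those of PPFIA4 (-4.79 ± 0.18, adjusted p = 1.67e-12) and HILPDA (-4.21 ± 0.25, adjusted p = 5.47e-10). Against OCI-LY3, 27 differed downward and 1 upward (median -2.19, all genes -0.16, 34.3% downward), and against OCI-LY19 27 and 1 (-1.96, all genes -0.08, 26.5% downward). Differences in the 3 other pairs ran both ways. HT exceeded OCI-LY3 in 5 members and fell short in 7 (9.5% and 19.9% of all genes). The 5 were NDRG1, BHLHE40, PPFIA4, AK4 and DDIT4. These are differences on log2(FPKM + 1), which understates the change of low genes. By the ratio of treated to untreated mean FPKM, NDRG1 rose more in OCI-LY3 (6.80) than in HT (4.91). BHLHE40, PPFIA4 and AK4 were near 0 in OCI-LY3 in both states. OCI-LY19 exceeded HT in 9 and fell short in 12 (22.6% of all genes each way). It exceeded OCI-LY3 in 8 and fell short in 11 (18.7% of all genes called higher, and 5115 of 17645 lower). Among the 8, NDRG1 and VLDLR had smaller FPKM ratios in OCI-LY19 (3.77 and 3.48) than in OCI-LY3 (6.80 and 4.72).

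In all, 18 members were called higher in HT and lower in SUDHL5, as were 6.14% of all genes tested. These 18 held both mitophagy receptors, VEGFA, P4HA1, HILPDA and PPFIA4. Of them, 15 were also called higher in OCI-LY3, a line where 40.4% of all genes were called higher. The lines ended closer together than they began. The distance between the highest and the lowest line mean was a median of 2.71 (log2) over the 29 tested members untreated and 1.67 after the drug, and it shrank in 21 of 29. Over all genes tested it was 0.95 and 1.10, and it shrank in 40.6%. VEGFA went from 3.67 to 0.99 and INSIG2 from 3.21 to 0.73, while NDRG1 went from 1.65 to 3.18. After the drug, all SUDHL5 libraries lay above the other 9 treated libraries in 5 of 33 members, and in 4 of the 29 tested against 11.7% of all genes. By library, the mean over the 33 members after the drug was 2.88 to 2.89 in SUDHL5, against 2.90 to 3.03 in OCI-LY19, 3.02 to 3.46 for HT libraries and 2.35 to 2.66 for those of OCI-LY3. Treated replicate 2 was the lowest of its group in OCI-LY3 (2.35), HT (3.02) and OCI-LY19 (2.90). In these lines same-numbered libraries carry the same prefix in their names, except untreated OCI-LY19 replicate 2, and the labels do not say what it marks.

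Other genes of the pathway were read from lists. Of 22 glycolytic HIF targets tested, 12 were higher and 1 lower in OCI-LY3, 18 and 0 in HT, 3 and 12 in OCI-LY19, and 0 and 20 in SUDHL5. Their medians were 0.32, 0.66, -0.39 and -0.88. Of all genes tested, 40.4% were called higher and 14.3% lower in OCI-LY3, and 22.9% and 9.41% in HT. In OCI-LY19 the shares were 34.5% and 23.7%, and in SUDHL5 18.6% and 19.9%. PFKFB4, which sets the level of a glycolytic activator, had the largest rise in OCI-LY19 (1.96 to 17.99 FPKM; 2.65 ± 0.34, adjusted p = 1.42e-06) and the largest fall in SUDHL5 (51.5 to 4.34; -3.30 ± 0.34, adjusted p = 2.25e-07). LDHA, lactate dehydrogenase, had the largest fall in OCI-LY19 (199.7 to 50.2; -1.98 ± 0.13, adjusted p = 1.19e-10). In OCI-LY19, glycolytic targets and the genes described here therefore had opposite balances of calls, 3 higher and 12 lower against 15 and 3, although the difference between the lists was not tested. Of 8 tested genes of oxygen sensing outside the 33, 2 were higher in OCI-LY3, 1 in HT and 1 in SUDHL5. In OCI-LY19, 4 were higher and 3 lower, where 58.2% of all genes were called either way. P4HTM, a membrane prolyl hydroxylase, rose in all 4, most in OCI-LY19 (3.04 to 6.34 FPKM; 0.86 ± 0.08, adjusted p = 3.86e-08). Of 14 other HIF targets tested, 5 were higher and 3 lower in OCI-LY3, 5 and 1 in HT, 8 and 4 in OCI-LY19, and 2 and 10 in SUDHL5. MXI1, a MYC antagonist, rose in HT (1.39 to 3.63; 0.92 ± 0.13, adjusted p = 3.53e-05) and fell in SUDHL5 (10.8 to 1.89; -2.02 ± 0.13, adjusted p = 4.56e-10).

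Markers of DNA damage and stress moved beside these genes in a different order of lines. Of 9 tested p53 targets, 9 were higher in OCI-LY19 and 9 in SUDHL5 (medians 3.22 and 1.98). In OCI-LY3 5 were higher and 1 lower (0.47), and in HT 3 and 1 (0.10). The shares of all genes called higher were 34.5%, 18.6%, 40.4% and 22.9% in this order of lines. Those called lower were 23.7%, 19.9%, 14.3% and 9.41%. CDKN1A, the cell cycle inhibitor p21, rose in SUDHL5 from 13.2 to 236 FPKM (4.06 ± 0.16, adjusted p = 5.34e-13) and in OCI-LY19 from 23.8 to 524 (4.41 ± 0.16, adjusted p = 3.76e-14). Integrated stress genes were mixed in each line, with 2 higher and 3 lower of 8 tested in OCI-LY3, 4 and 1 in HT, 3 and 4 in OCI-LY19, and 2 and 4 in SUDHL5. Among them, SESN2, an inhibitor of mTORC1, rose most in OCI-LY19 (3.73 to 40.5; 3.13 ± 0.11, adjusted p = 1.99e-14). B cell markers were lower in 6 of 6 in OCI-LY3, 4 lower and 1 higher in HT, 2 and 2 in OCI-LY19, and 5 higher in SUDHL5. The part of these changes in the result for the hypoxia genes was not tested.

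OCI-LY19R and OCI-LY19S differed in few members, and both calls were upward, that of NDRG1 being fixed in direction by the filter. The tables were normalized separately, so no level here is set against those of the 4 lines. Of 26 tested members, 2 (7.7%) were called higher and 0 lower, where 3.11% and 2.34% of all genes were called (5.44% either way), and the median was 0.15 against 0.05. At unadjusted limma p below 0.05, 6 were higher and 3 lower, and voom on recovered reads called 3 higher and 0 lower. The background was unstable: leaving out 1 library gave from 0.024% (without OCI-LY19R replicate 2) to 4.94% (without OCI-LY19S replicate 1) of all genes called higher, and the replicate block 1.06% higher and 1.1% lower. NDRG1 (ENSG00000104419.17, chromosome 8, 133237171 to 133302022, minus strand) stood at 0.994, 0.608 and 0.69998 FPKM for OCI-LY19S and 3.38, 3.296 and 4.15 for OCI-LY19R, without overlap (1.38 ± 0.13, adjusted p = 0.00509; 2.11 with a pseudocount of 0.1). WSB1 stood at 6.78, 7.05 and 7.34 FPKM for OCI-LY19S and 9.89, 10.3 and 9.86 for OCI-LY19R, also without overlap (0.45 ± 0.07, adjusted p = 0.0242). WSB1 lost its call without OCI-LY19S replicate 2 or 3 or any 1 OCI-LY19R replicate (0.43 to 0.48, adjusted p = 0.0557 to 0.158) and with a replicate block (0.45, adjusted p = 0.0741). NDRG1 passed the filter through its 3 OCI-LY19R libraries alone, so it had to differ, its call is no support, and it could not be tested without any 1 of them. By the rule of no overlap, 5 tested members were higher (NDRG1, WSB1, ADM, FAM162A and ARNT) and 2 lower, against 20.9% and 11.8% of all genes. NDRG1 was bound to be counted here too, by the same filter.

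DDIT4 stood at 168, 28.5 and 33.96 FPKM for OCI-LY19S and 54.7, 50.03 and 53.04 for OCI-LY19R, with OCI-LY19S replicate 1 far above the others. Over all 6 libraries its change was -0.06 ± 0.61, adjusted p = 0.965, and without that replicate it turned to 0.74 (adjusted p = 0.0143). That same library was also the highest or lowest OCI-LY19S library for several members, such as ANKZF1 (21.5, 13.4 and 12.01), VHL (36.6, 24.3 and 22.9) and PLOD1 (5.43, 8.24 and 9.7004). Without it HILPDA was called lower (-0.54, adjusted p = 0.0359). ADM stood at 1.03, 0.941 and 0.922 FPKM for OCI-LY19S and 3.85, 1.63 and 2.22 for OCI-LY19R and FAM162A at 7.08, 10.7 and 9.09 FPKM for OCI-LY19S and 14.05, 12.9 and 12.4 for OCI-LY19R, both higher without overlap but not called (0.81 ± 0.22, adjusted p = 0.0817, and 0.52 ± 0.14, adjusted p = 0.0886). EGLN1 stood at 4.97, 6.32 and 5.43 FPKM for OCI-LY19S and 4.502, 3.83 and 4.24 for OCI-LY19R and VEGFA at 6.81, 3.94 and 3.82 FPKM for OCI-LY19S and 3.69, 2.69 and 2.50001 for OCI-LY19R, lower without overlap but not called (-0.34 ± 0.11, adjusted p = 0.119, and -0.54 ± 0.21, adjusted p = 0.188). The 20 glycolytic targets tested had 1 call, for ENO2 (3.13 to 5.93 FPKM; 0.75 ± 0.14, adjusted p = 0.0322), where 5.44% of all genes were called.

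In the authors' deposited table, made on the same libraries, 7 of 31 members with an adjusted p passed 0.05, 4 higher and 3 lower, against 10.5% of the 20731 genes with such a value. The authors' deposited table gave NDRG1 a log2 fold change of 2.18 ± 0.20, adjusted p = 9.90e-25, WSB1 0.43 ± 0.12, adjusted p = 0.00482, ADM 1.36 ± 0.33, adjusted p = 0.00102 and EPAS1 1.19 ± 0.39, adjusted p = 0.027. It also gave, in the authors' deposited table, VEGFA -0.77 ± 0.24, adjusted p = 0.0184, VLDLR -1.17 ± 0.34, adjusted p = 0.0077 and EGLN1 -0.48 ± 0.16, adjusted p = 0.0347. EPAS1 stood at 0.127, 0.2802 and 0.179 FPKM for OCI-LY19S and 0.685, 0.348 and 0.358 for OCI-LY19R and VLDLR at 1.05, 0.404 and 0.506 FPKM for OCI-LY19S and 0.2898, 0.339 and 0.273 for OCI-LY19R, both below the level tested here.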

How the data were processed

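RNA was poly(A)-selected and made into strand-marking libraries, per the labels' protocols. The submitters' processing notes name hg38, Trimmomatic, STAR and featureCounts. The annotation release and whether counting used strand are not stated in these sources. Gene-level FPKM values were deposited by the authors as 2 tables, the resistance pair being apart from the 4 lines. The table of that pair, per the file headers, also holds the authors' deposited comparison: a mean signal, a log2 fold change, its error and statistic (scores), and p-values.

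A gene was tested where 3 or more libraries of the table reached 1 FPKM. The test was limma 3.58.1 (R 4.3.3) on log2(FPKM + 1), two-sided, by lmFit and by eBayes with a mean trend. The 8 groups of the 4 lines were fitted together (17645 genes, 16 residual degrees of freedom) and the other table alone (12785 genes, 4 degrees of freedom). Benjamini-Hochberg adjustment ran over all genes tested, and adjusted p below 0.05 was called. Moderated F tests and interaction contrasts compared responses. The fits were tested on simulated data. Whole reads recovered from the FPKM steps (100.0% of values whole within 0.01 read over genes whose ID version matched GENCODE 29) gave the depths and an alternative with voom. Same-numbered HT libraries deviated together (r = 0.167 to 0.347), so the number pairs them by the data; other lines did not all do so.

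Exons of 15 members overlap a gene on the other strand and 2 overlap one on the same strand, where reads may be shared. Values in every library are given for HIF subunits, EGLN1, EGLN3, HIF1AN, VHL and members called with a change of at least 1 in size; genes named outside the 33 are among those with the largest and smallest called changes of each list, and not all of these are reported here. Members and lists were chosen with earlier results of these data known. Symbols and positions come from the deposited IDs and GENCODE 29, promoters from RefSeq. Alternatives changed the pseudocount (0.1), the filter (none, or 5 FPKM), the scaling, the covariates, the libraries fitted and the count model.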

Additional observations from a re-analysis of the deposited data

Results flagged for a closer look

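The drug response differed among the 4 lines for all 29 tested members by limma's F test, against 72.2% of all genes tested. For the 18 members called higher in HT and lower in SUDHL5, a choice that fixes the sign of the difference, SUDHL5 minus HT on the log2 scale is given as a description. It was -4.79 for PPFIA4, -4.21 for HILPDA, -3.96 for FUT11, -3.79 for BNIP3, -3.62 for INSIG2 and -3.42 for P4HA1. It was -3.07 for DDIT4, -2.98 for AK4, -2.96 for WSB1, -2.94 for FAM162A, -2.93 for BHLHE40, -2.83 for BNIP3L and -2.80 for VEGFA. The smallest were -2.50 for ANKZF1, -2.47 for ERO1A, -2.43 for KDM3A, -2.05 for ANKRD37 and -1.71 for GBE1. Untreated and treated libraries did not overlap in either line for these genes, and 6.14% of all genes were called higher in HT and lower in SUDHL5.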

How the results depend on the processing

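Over all alternatives run, 2119 values kept their direction and side of the threshold, 44 lost the call, 26 gained one and 2 reversed. The reversals were VHL in OCI-LY3 with median-of-ratios scaling (-0.11) and DDIT4 in OCI-LY19R against OCI-LY19S without OCI-LY19S replicate 1 (leaving out 1 library gave -0.52 to 0.74). Members called lower in OCI-LY3 went from 0 to 1 with median-of-ratios scaling, and those called lower in HT from 2 to 1 with HT fitted alone. In OCI-LY19R against OCI-LY19S, members called higher went from 2 to 1 with a filter of 5 FPKM. Leaving out 1 library gave 0 to 3 called higher and 0 to 1 called lower there, 1 to 2 lower in HT, 17 to 22 higher in OCI-LY3, 19 to 22 in HT, 15 in OCI-LY19, and 25 lower in SUDHL5. Members called higher in OCI-LY3 were 15 with median-of-ratios or quantile scaling (26.8% and 24.6% of all genes) and 17 with the line alone (40.9%).

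With the replicate block, members called higher were 1 in OCI-LY19R against OCI-LY19S, where same-numbered libraries correlated at -0.115 to 0.118, and 21 in HT, where the numbers pair the libraries. The block reversed no direction and moved no other count by over 1.5 times. The samples of OCI-LY3 (-0.0116 to 0.362), OCI-LY19 (0.0364 to 0.355) and SUDHL5 (-0.0199 to -0.014) share a number and, in OCI-LY3 and in OCI-LY19 but for untreated replicate 2, a prefix in the library names whose meaning the labels do not give. With the block there, EGLN1 in OCI-LY3 (adjusted p = 0.0205) and CITED2 (0.0267) and FUT11 (0.03) in OCI-LY19 gained a call. The untreated F test could not be fitted with the block or with the library-name tag. Low depth limits genes under 1 FPKM, whose changes depend on the pseudocount, and OCI-LY19R against OCI-LY19S has 4 residual degrees of freedom.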
